A study of Mus musculus with 9 samples.

Results

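Lyz1 and Lyz2 are the lysozyme genes of the mouse that encode the lysozymes of the gut and of phagocytes, and they are 2 of the 53801 genes listed for monocytes/macrophages sorted from the blood and the brain after ischemic stroke, of which 25402 had a count in any library. They were chosen for the large share of all counts that Lyz2 takes, so the shares, levels and differences of both genes are given as a description, without a test. Lyz1 is ENSMUSG00000069515 and Lyz2 is ENSMUSG00000069516. The counts came from 3 groups of 3 libraries of CD11c-Ly6G-CD11b+CD45high cells from male C57BL/6J mice that were 9 weeks old. The stroke blood and stroke brain groups came from mice 5 days after dMCAO, in which the left distal middle cerebral artery and the left common carotid artery were both permanently occluded, and the brain cells came from the ipsilesional hemisphere. The sham blood group came from sham-operated mice, for which the sources do not name the day. Each blood library was made from 1 mouse and each brain library from a pool of 5 mice, so the spread between brain libraries is a spread between pools.

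Lysozyme is an enzyme that cuts the sugar backbone of peptidoglycan, the main polymer of the bacterial cell wall, and so opens the wall to lysis. In the mouse the gene was duplicated: Lyz2, also called lysozyme M, is the form of monocytes, macrophages and neutrophils, and Lyz1, also called lysozyme P, is the form of the Paneth cells of the small intestine. Lyz2 is widely used as a marker of myeloid cells, and its locus drives the Cre recombinase of the LysM-Cre mouse line.

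Total counts ranged from 18475118 to 22623578 per library. All 8 pan-myeloid markers, such as Itgam (CD11b) and Ptprc (CD45), had more than 3 counts in every group, with a summed level from 10547 to 12599 counts per 1000000 (CPM) per library. The summed level of 7 erythroid markers ranged from 1223 to 34182 CPM in sham blood, from 13801 to 18457 CPM in stroke blood and from 4.16 to 14.5 CPM in the brain. The 10 neutrophil markers summed to between 826 and 1348 CPM in the brain and to between 46.1 and 311 CPM in stroke blood, and sham blood replicate 3 stood apart from the other sham libraries with 1700 CPM. Ly6g, which defines neutrophils, had at most 14 counts in any library. The 8 microglia markers summed to between 1327 and 3568 CPM in the brain and to between 134 and 204 CPM in blood, where Sall1 was at 0 in all 6 libraries. In sorted populations, fewer cells of a type and less RNA per cell cannot be told apart.

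Lyz1 and Lyz2 lie side by side on the reverse strand of chromosome 10 in GRCm38, 5475 bases apart, Lyz2 at chr10:117277331-117282321 and Lyz1 at chr10:117287797-117292868 (GENCODE M21). Each has 4 exons, with a transcript of 1316 bases for Lyz2 and 1263 bases for Lyz1, and a coding sequence of 447 bases in both. In 1262 aligned transcript bases 51 differed, which is an identity of 96.0%, and in the coding sequence 22 of 447 bases differed. The second exon, which is wholly coding, is printed because its few differences are what a read from this exon has to cover to be placed on 1 of the genes. It spans chr10:117291029-117291193 in Lyz1 and chr10:117280641-117280805 in Lyz2, is written on the strand of the genes, and the capitals mark the 6 of 165 bases that differ:
Lyz1 exon 2: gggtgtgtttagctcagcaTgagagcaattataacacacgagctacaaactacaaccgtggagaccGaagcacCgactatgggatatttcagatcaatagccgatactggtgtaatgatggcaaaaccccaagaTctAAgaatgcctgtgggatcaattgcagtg
Lyz2 exon 2: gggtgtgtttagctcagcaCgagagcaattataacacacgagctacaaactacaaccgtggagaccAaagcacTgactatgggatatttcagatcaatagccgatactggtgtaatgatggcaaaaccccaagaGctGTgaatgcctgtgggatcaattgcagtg
Reads were sequenced from both ends at a length of 75 bases. Of the 1189 windows of 75 bases in the Lyz1 transcript, 74 (6.22%) were identical to a window of Lyz2, 18.8% were within 1 mismatch and 44.7% were within 2 mismatches, with a median of 3. None of the windows of either transcript was identical to a window in a transcript of another gene. How reads that fit both genes were counted is not given in the sources used here, so the Lyz1 counts, which are far fewer, are uncertain to the extent that reads of Lyz2 were placed there, and this extent was not tested.

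The sequence upstream of the genes is printed because Lyz1 and Lyz2 counts were so unequal while the 80 bases shown have an identity of 87.5%. Over the wider window searched below the identity was 75.8%. Whether the differing bases bear on the counts was not tested. It is shown from 130 to 51 bases before the RefSeq start, at chr10:117292919-117292998 for Lyz1 and chr10:117282323-117282402 for Lyz2, 5′ to 3′ on the strand of the genes, with the 10 of 80 bases that differ in capitals (RefSeq, GRCm38.p6):
Lyz1 upstream: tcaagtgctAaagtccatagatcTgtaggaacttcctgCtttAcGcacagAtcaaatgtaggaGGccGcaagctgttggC
Lyz2 upstream: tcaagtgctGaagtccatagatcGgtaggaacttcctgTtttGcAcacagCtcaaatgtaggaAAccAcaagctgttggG
The 50 bases between this stretch and the RefSeq start were identical in both genes. In GENCODE M21 Lyz2 begins farther upstream, at chr10:117282321, so there these bases lie almost wholly in its exon 1. In Lyz1 they lie before the gene in both annotations. All distances here count from the RefSeq start. Over 198 aligned bases reaching from 250 to 51 bases before the start, 48 differed. Motifs of 5 kinds of myeloid transcription factor were searched on both strands of these 200 bases. The ETS motif AGGAAG matched the antisense strand 99 bases before the start in both genes, inside the printed stretch, and a second time only in Lyz2, on the sense strand 137 bases before the start, and it is found in 23.9% of 32851 promoter windows of the same length. The RUNX motif TGTGGT matched the antisense strand of Lyz2 at 66 bases, where 2 of the bases in capitals differ from Lyz1, and it is found in 11.6% of promoters. The C/EBP motif TTGCNNAA matched only Lyz1, on the antisense strand at 209 bases (8.11% of promoters). The PU.1 motif GAGGAA (18.8%) and the AP-1 motif TGANTCA (5.57%) matched neither. AGGAAG and GAGGAA can overlap each other by 5 bases.

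Lyz2 had more counts than any other gene in all 9 libraries. In sham blood it took 11.6%, 9.42% and 7.95% of all counts in replicates 1, 2 and 3, from 2377298, 2004668 and 1469189 counts. In stroke blood it took 8.96%, 9.84% and 8.87%, from 1856366, 2122134 and 1644018 counts. In the brain it took 3.87%, 4.12% and 4.28%, from 725706, 931602 and 925178 counts. The brain libraries were thus all below the 6 blood libraries, and the stroke blood libraries lay within the range of the sham blood libraries. The mean share was 9.65% ± 1.82 in sham blood, 9.22% ± 0.537 in stroke blood and 4.09% ± 0.207 in the brain (SD, n = 3 each), and the order of the means does not separate the blood groups. The 95% Wilson interval of a library was at most 0.014 percentage points to either side, which covers counting error of reads without molecular identifiers only.

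The mean share of Lyz2 was 2.26 times lower in the brain than in stroke blood. With TMM scaling, which sets the bulk of genes to be equal between libraries, the fitted log2 difference in edgeR was -1.33 (SE 0.167), and with scaling by library size alone it was -1.17. Of the 13189 genes tested, 17.3% were likewise lower in the brain without overlap of the libraries, a number from which nothing is read for Lyz2, since it was chosen on these shares. Against sham blood the brain share was 2.36 times lower, with a fitted log2 difference of -1.36 (SE 0.191), beside 14.2% of 13020 genes that were lower without overlap. Both brain comparisons use the same brain libraries. Between stroke blood and sham blood the fitted log2 difference of Lyz2 was -0.03 (SE 0.221), and the libraries overlapped. When the hemoglobin genes were taken out of the total, the mean share of Lyz2 was 9.83% in sham blood, 9.36% in stroke blood and 4.09% in the brain. Among the sham libraries, replicate 3 had the lowest Lyz2 share and the highest sums of neutrophil markers and of classical monocyte markers (37573 CPM, against 18898 and 22119 CPM), and without it the sham mean was 10.5%. The classical monocyte markers were also lower in the brain, between 7363 and 7829 CPM against 16705 and 18571 CPM in stroke blood. The sum of 10 non-classical monocyte markers was higher, from 2805 to 5332 CPM in the brain and from 2132 to 2386 CPM in stroke blood. Its members did not all move alike, as Ear2 had 2274, 2172 and 2480 counts in the brain and 4834, 4149 and 4131 in stroke blood. The part that cell composition has in the Lyz2 difference was not tested.

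Lyz1 was present in every library at a low level. Sham blood replicates 1, 2 and 3 had 3398, 1990 and 1042 counts, which were 165, 93.5 and 56.4 CPM. Stroke blood replicates had 1589, 4213 and 2349 counts, which were 76.7, 195 and 127 CPM. Brain replicates had 1703, 1824 and 1445 counts, which were 90.8, 80.6 and 66.9 CPM. All 3 groups overlapped, with stroke blood replicate 2 the highest and sham blood replicate 3 the lowest of the 9 libraries. The mean was 105 ± 55.4 CPM in sham blood, 133 ± 59.6 CPM in stroke blood and 79.4 ± 12.01 CPM in the brain (SD, n = 3 each), and neighbours in this order did not differ beyond their spread. The fitted log2 difference of Lyz1 was -0.90 (SE 0.297) between brain and stroke blood, -0.53 (SE 0.353) between brain and sham blood, and 0.37 (SE 0.416) between stroke and sham blood. Single libraries moved these values: between brain and sham blood the difference was between -0.84 and -0.02 when each library was left out in turn, and between stroke and sham blood it was between -0.02 and 0.87. Between brain and stroke blood it was between -1.20 and -0.58.

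**Figure D1:**
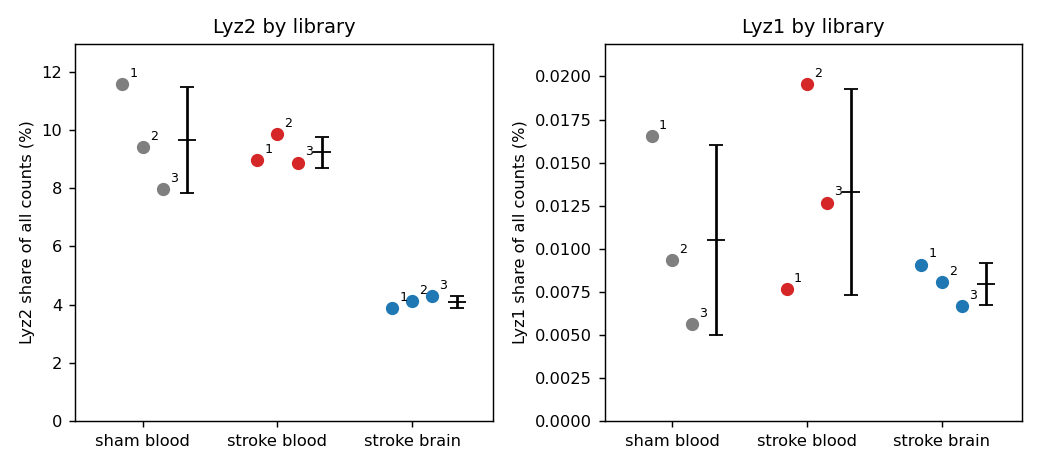
Share of all counts taken by Lyz2 (left) and Lyz1 (right), in percent, in the 3 libraries of each group. Points are libraries with their replicate number, and the bars beside them give the mean and SD (n = 3). The brain libraries lie between 3.87% and 4.28% for Lyz2, below all blood libraries, while the Lyz1 points of the 3 groups overlap.

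Per kilobase of transcript, Lyz2 reached between 60427 and 87875 CPM in the blood libraries and between 29399 and 32527 CPM in the brain libraries, and Lyz1 between 44.7 and 155 CPM in all libraries. The level of Lyz1 per length was therefore a small fraction of that of Lyz2 everywhere. The ratio of the counts was followed across libraries as a second measure, since it does not depend on the library total. Per 1000 counts of Lyz2 there were 1.43, 0.993 and 0.709 counts of Lyz1 in sham blood, 0.856, 1.99 and 1.43 in stroke blood, and 2.35, 1.96 and 1.56 in the brain. The brain libraries all lay above the sham blood libraries, and overlapped with the stroke blood libraries, of which replicate 2 lay between brain replicates 1 and 2. The mean ratio was 1.04 ± 0.363 in sham blood, 1.42 ± 0.565 in stroke blood and 1.96 ± 0.392 in the brain (SD, n = 3 each). From the lowest to the highest library the ratio differed by 3.31 times, so Lyz1 counts were not a fixed fraction of Lyz2 counts. Over the 9 libraries, the profiles of the genes differed by a root mean square of 0.553 on the scale of log2(TMM CPM + 1), each centred on its own mean. Among 7677 genes with a mean of at least 10 CPM, Lyz2 ranked 1218 by nearness to Lyz1, and Lyz1 ranked 2010 by nearness to Lyz2. The median over these genes was 0.661 for Lyz1 and 0.695 for Lyz2. A profile without any change would lie 0.593 from Lyz1 and 0.655 from Lyz2, little farther than the genes lie from each other.

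The gene nearest to Lyz2 in profile over the 9 libraries was Ap1s2, which encodes a small subunit of the AP-1 clathrin adaptor, with a root mean square difference of 0.1002. It had 526, 377 and 379 CPM in sham blood, 425, 414 and 352 CPM in stroke blood, and 184, 176 and 180 CPM in the brain. The next were Gstm2-ps1 (0.110), a pseudogene, Gstm1 (0.121), a glutathione transferase, Ccl9 (0.136), a chemokine of myeloid cells, and Mettl9 (0.147), a methyltransferase. Ccl9 had 1576, 1278 and 969 CPM in sham blood, 1359, 1299 and 1469 CPM in stroke blood, and 545, 673 and 616 CPM in the brain. In these 5 genes, as in Lyz2, each brain library was below every blood library. They were picked for nearness to Lyz2 over the same libraries, so this comes with the choice and nothing is read from it. Of all genes tested, 17.3% were lower without overlap in the brain than in stroke blood, and 14.2% than in sham blood. Gstm2-ps1 may share reads with other genes of its family, Gstm1 included, and Mettl9 overlaps exons of Gm9905 on the opposite strand, which cannot be told apart where the strand setting of the counting is not given.

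Those nearest to Lyz1 were Samd9l (0.324), Lpar6 (0.330), Cmpk2 (0.337) and Dhx40 (0.342). Lpar6 encodes a receptor of lysophosphatidic acid, and Cmpk2 and Samd9l are interferon-inducible genes. Samd9l had 139, 90.0 and 61.7 CPM in sham blood, 71.3, 114 and 80.1 CPM in stroke blood, and 76.3, 77.1 and 82.6 CPM in the brain, so that its groups overlapped as those of Lyz1 did. It was picked for this likeness. Lpar6 overlaps exons of Rb1 on the opposite strand. The nearest gene was farther from Lyz1 than from Lyz2, and by CPM scaled to library size alone these genes were again the nearest to each.

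**Figure D2:**
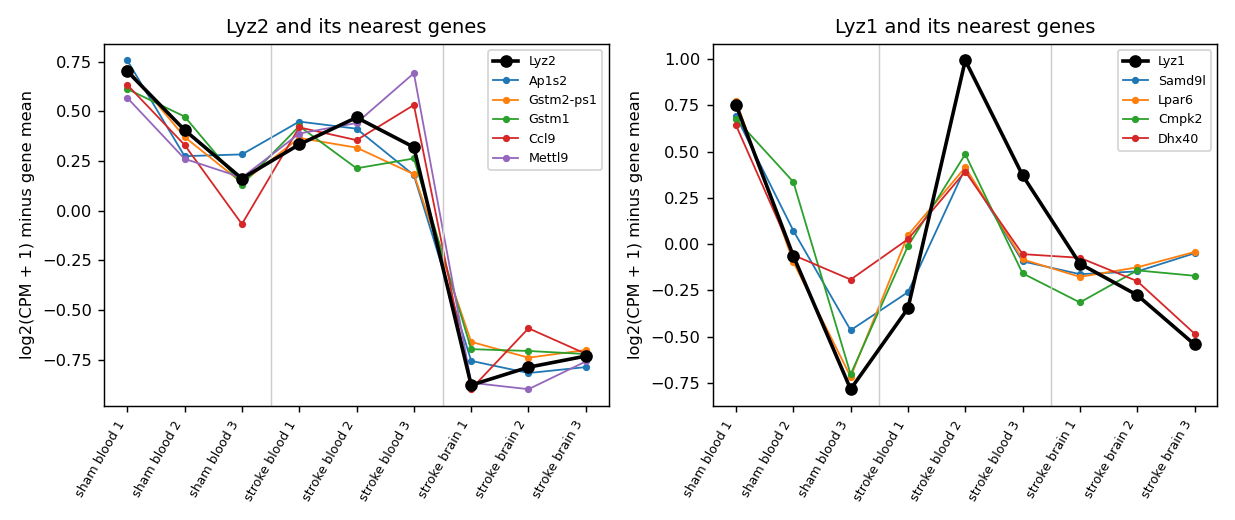
Profiles over the 9 libraries of Lyz2 (left) and Lyz1 (right), in black, and of the nearest genes, 5 for Lyz2 and 4 for Lyz1, in colour, as log2(CPM + 1) by library size minus the mean of each gene. Vertical lines part the groups. The genes near Lyz2 drop together in the 3 brain libraries, while those near Lyz1 follow its peaks in sham blood replicate 1 and stroke blood replicate 2 with smaller steps. All were picked for this nearness.

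The counts of Lyz2 also enter the level of every other gene when levels are expressed over the library total. When Lyz1 and Lyz2 were taken out of the total, the CPM of any other gene rose by 13.1%, 10.4% and 8.65% in sham blood replicates 1, 2 and 3, by 9.85%, 10.9% and 9.75% in stroke blood, and by 4.03%, 4.30% and 4.48% in the brain. The rise was therefore larger in all blood libraries than in all brain libraries, with means of 10.7% ± 2.24, 10.2% ± 0.661 and 4.27% ± 0.224 (SD, n = 3 each). Nearly all of it came from Lyz2, as Lyz1 took at most 0.0195% of the counts. For the same reason the log2 difference between brain and stroke blood moved down for every other gene. Over 11703 genes with a mean of at least 1 CPM, the median move was -0.08, and the median log2 difference went from 0.22 to 0.14.

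**Figure D3:**
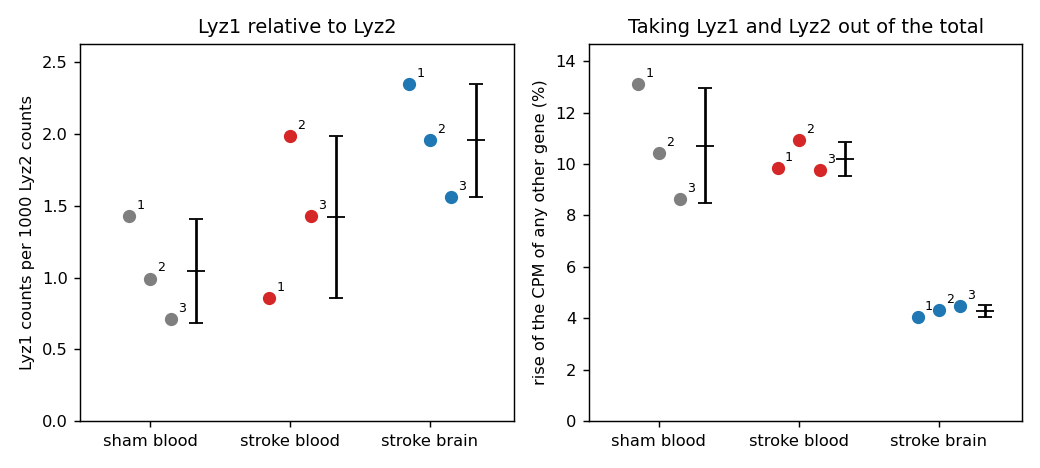
Left, counts of Lyz1 per 1000 counts of Lyz2. Right, the rise in percent of the CPM of any other gene when Lyz1 and Lyz2 are taken out of the library total. Points are libraries with their replicate number, and bars give the mean and SD of each group (n = 3). The rise lies between 4.03% and 4.48% in the brain and between 8.65% and 13.1% in blood.

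Actb, which encodes beta-actin and had the largest mean share in the brain after Lyz2 (1.33%), had a log2 difference of mean CPM between brain and stroke blood of 0.72 with the lysozyme genes in the total and of 0.64 without them. Tmsb4x, which encodes thymosin beta-4 and followed Lyz2 in stroke blood with 1.11%, went from -0.33 to -0.40. Gpx1, a glutathione peroxidase, went from -1.35 to -1.42, Apoe, the apolipoprotein E gene, from 2.10 to 2.02, and Cd74, the invariant chain of MHC class II, from 1.82 to 1.74. None of these 5 genes changed direction. By counts, not corrected for length, the share of Lyz2 was between 3.51 and 12.9 times that of the next gene in a blood library, and between 2.55 and 2.82 times in a brain library. The lowest of the blood values was in sham blood replicate 3, where Chil3, a chitinase-like lectin, came next with 2.27%.

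The number of genes past a 2-fold difference moved with the denominator, without a test. Between brain and stroke blood, 2265 genes were more than 1 log2 unit higher in the brain with the lysozyme genes in the total and 2089 without them, and 954 were more than 1 unit lower with them and 1080 without. In all, 302 genes crossed this line and 494 changed sign, and the share of genes that were lower in the brain went from 38.1% to 42.3%. Against sham blood the median move was -0.09, 251 of 11639 genes crossed the line and 662 changed sign. Between stroke and sham blood, where Lyz2 shares overlapped, the median move was -0.01, with 9 of 11282 genes crossing and 54 changing sign.

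The calls of the test were compared in the same way, and since the removal moves all other genes alike, the direction in which calls are lost or gained is fixed by it. Differentially expressed genes (DEGs) were called in edgeR's quasi-likelihood test where the log2 fold change was beyond 1 in size and the p, adjusted over all genes tested by Benjamini-Hochberg, was under 0.05. Library-size scaling set the median log2 difference of all other genes between brain and stroke blood at 0.22, against 0.06 under TMM. Scaled by library size alone, 2056 other genes were called higher and 796 lower in the brain than in stroke blood. With the lysozyme genes out of the total, 1874 were called higher and 899 lower, so that 182 calls were lost, all of them higher, and 103 were gained, all of them lower, while 2670 were called in both. Against sham blood, 140 calls were lost, all higher, and 71 gained, all lower, of 1438 higher and 354 lower calls. Scaled by TMM, which computes a factor from genes after trimming the most extreme, the calls hardly moved, with 3 lost and 2 gained against stroke blood, and 4 lost and none gained against sham blood. The TMM factors of the stroke blood libraries were between 0.926 and 0.962 with the lysozyme genes and between 0.948 and 0.995 without them, and those of the brain libraries were between 1.05 and 1.07 with them and between 1.02 and 1.03 without. Between stroke and sham blood, removal changed no call under either scaling, but 11 calls changed under library-size scaling when sham blood replicate 1, which has the highest Lyz2 share, was left out, and 3 when stroke blood replicate 2 was.

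With TMM, 2771 of 13189 genes were DEGs between brain and stroke blood (21.0%, with 13.1% higher and 7.86% lower in the brain), and the genes described next are set beside these shares. Both lysozyme genes passed the filter on low counts in every comparison. Of 8 other genes of the lysozyme family, none passed the filter: Lyzl1, Lyzl6, Spaca3, Spaca5, Lyg1, Lyg2 and Lalba, the last encoding the lysozyme-related alpha-lactalbumin, had 0 counts in all 9 libraries, which allows up to 3 counts in a library. Lyzl4 had 9 counts in brain replicate 3 and none elsewhere. The count of a lysozyme was therefore carried by Lyz2 and, far below, Lyz1.

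The fragments that lysozyme releases from peptidoglycan are sensed by the cytosolic receptors Nod1 and Nod2, and lipoproteins of the bacterial wall by Tlr2 with Tlr6. Of 16 genes of peptidoglycan handling and sensing, 13 passed the filter, and 1 was higher and 0 were lower in the brain than in stroke blood, with a median log2 difference of 0.10 beside 0.06 over all genes. The filter also keeps a gene that is counted in 1 group alone. Tlr2 had 9930, 10828 and 7593 counts in the brain and 2933, 3291 and 2232 in stroke blood, without overlap, as in 31.9% of all genes tested. Its level was 453 ± 91.7 CPM in the brain and 138 ± 16.3 CPM in stroke blood (SD, n = 3), a log2 fold change of 1.56 (SE 0.184, adjusted p = 0.000370 in edgeR). Ripk2, the kinase that carries the signal of Nod1 and Nod2, had a log2 difference of 0.83 (SE 0.195, adjusted p = 0.0116 in edgeR), under the fold threshold. Nod1 was at -0.03 (SE 0.195) and Nod2, at 3.53 and 5.71 CPM in stroke blood and brain, at 0.53 (SE 0.478), and neither was a DEG. Pglyrp1, a peptidoglycan recognition protein that is itself antibacterial, was at -0.59 (SE 0.188), and Tlr6 at -0.78 (SE 0.236), also under the threshold. Pglyrp3, Pglyrp4 and Slc46a2 had at most 5 counts in any library.

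Against sham blood, where 13.4% of 13020 genes were DEGs (9.75% higher and 3.67% lower), 2 of the 13 were higher and 1 lower in the brain, with a median of 0.17 beside 0.01 over all genes. The peptide transporters Slc15a2 (1.55, SE 0.442, adjusted p = 0.0455 in edgeR) and Slc15a3 (1.01, SE 0.199, adjusted p = 0.0130 in edgeR) were higher, and Tlr6 was lower (-1.05, SE 0.232, adjusted p = 0.0189 in edgeR). All 3 were near a threshold. Slc15a2 was no longer called when any 1 of the 6 libraries was left out, with a log2 fold change between 1.18 and 1.75. Slc15a3 was no longer called without brain replicate 1 (0.88) or without sham blood replicate 2 (0.91) or 3 (0.93), and Tlr6 without brain replicate 1 (-0.89) or sham blood replicate 3 (-0.93). Over 10 alternative settings, library removals included, the call was lost in 7 for Slc15a2, in 3 for Slc15a3 and in 3 for Tlr6. Exons of Slc15a3 overlap Tmem132a on the opposite strand.

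Lysozyme is 1 of the antibacterial proteins that phagocytes carry in granules or make on demand, and 19 of 21 others passed the filter. Between brain and stroke blood 9 were higher, 6 were lower and 4 were not called, with a median log2 difference of 0.96 over the 19. The 6 that were lower, like Lyz2 in level, were Hp, Chil3, Rnase6, Slpi, Cybb and Mpeg1. Hp, which encodes the hemoglobin-binding protein haptoglobin, had 11572, 15297 and 13728 counts in the brain and 41954, 33616 and 38003 in stroke blood, a log2 fold change of -1.70 (SE 0.167, adjusted p = 0.000150 in edgeR). Cybb, the catalytic subunit of the phagocyte NADPH oxidase, had 32968, 31961 and 32992 counts in the brain and 68158, 79369 and 64658 in stroke blood (-1.31, SE 0.152, adjusted p = 0.000350 in edgeR). In both genes the groups did not overlap, as in the 17.3% of all genes tested that were lower in the brain without overlap. Rnase6, an antimicrobial ribonuclease, fell by 1.41 (SE 0.178), Slpi, an inhibitor of leukocyte proteases, by 1.37 (SE 0.261), and Chil3 by 1.42 (SE 0.245). Mpeg1, the pore-forming perforin-2, fell by 1.23 (SE 0.325, adjusted p = 0.0191 in edgeR), a call that was lost without stroke blood replicate 3 (-1.11) or brain replicate 2 (-0.92). Chil3 has a close paralog in the mouse genome and Slpi overlaps a microRNA on the same strand, so that their counts are uncertain.

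The 9 antibacterial genes that were higher in the brain than in stroke blood were Mpo, Ltf, Acod1, Ngp, Camp, Elane, S100a9, Ctsg and S100a8. Of these, 7 are also on the list of neutrophil markers. Its sum, 826 to 1348 CPM in the brain and 46.1 to 311 CPM in stroke blood, includes these 7 genes and so is no separate measure. The other markers of that list, Retnlg, Cxcr2 and Ly6g, overlapped between the groups. Retnlg had 3652, 8320 and 11579 counts in the brain and 180, 6247 and 1889 in stroke blood. The part of neutrophil RNA in the differences of the 9 genes was not tested. Acod1, which makes itaconate in activated macrophages and is no neutrophil marker here, had 551, 680 and 416 counts in the brain and 16, 10 and 15 in stroke blood (5.10, SE 0.352, adjusted p = 2.6e-05 in edgeR). Mpo, the myeloperoxidase gene, had 2965, 1017 and 409 counts in the brain and 6, 13 and 27 in stroke blood (6.41, SE 0.888). Elane, the neutrophil elastase gene, had 3047, 252 and 386 counts in the brain and 84, 23 and 38 in stroke blood (4.57, SE 1.02). For Mpo and Elane, brain replicate 1 was far above the other brain libraries. Camp, the cathelicidin gene, had 1569, 756 and 1069 counts in the brain and 0, 9 and 100 in stroke blood (4.69, SE 1.06), and Ctsg, the cathepsin G gene, 155, 188 and 112 against 32, 25 and 19 (2.38, SE 0.394). In each of these 5 genes the brain libraries lay above the stroke blood libraries, as they did in 31.9% of all genes tested. Ltf (lactoferrin) was higher by 5.26 (SE 1.02), Ngp by 4.97 (SE 1.28), and S100a9 and S100a8, which form calprotectin, by 3.54 (SE 0.845) and 2.26 (SE 0.536). The calls of Elane (without stroke blood replicate 3, log2 4.46), Ngp (without stroke blood replicate 2, 4.37) and S100a8 (without stroke blood replicate 1, 2.22) were each lost with 1 library, at adjusted p = 0.0544, 0.0543 and 0.0552 in edgeR, and DESeq2 did not call Ngp (4.93, adjusted p = 0.0600 in DESeq2). Exons of Mpo overlap Gm11505 on the opposite strand.

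Against sham blood 7 of the 19 were higher and 4 lower in the brain, with a median of 0.36. Chil3, Slpi, Hp and Mpeg1 were lower, at -2.71 (SE 0.471), -1.76 (SE 0.321), -1.67 (SE 0.244) and -1.22 (SE 0.354). Mpeg1 was not called when any 1 library but brain replicate 3 was left out, with values between -1.39 and -0.92. Nor was it called under library-size scaling, with the lysozyme genes in the total (-1.10) or without them (-1.18). Mpo, Acod1, Elane, Ngp, Camp, Ctsg and Rnase4 were higher, Camp at 3.51 (SE 0.711) and Rnase4, which overlaps exons of Ang on the same strand, at 1.42 (SE 0.302). The calls of Camp without sham blood replicate 3 (3.12) and of Rnase4 without sham blood replicate 2 (1.35) were lost. That of Elane was lost without brain replicate 1 (1.82) or without any 1 of the sham libraries (3.61 to 4.76). It was also lost with the replicate number as a block (2.97). S100a9 was not called against sham blood (0.36, SE 0.841), where sham blood replicate 3 held 4763 counts and replicates 1 and 2 held 694 and 553.

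Transcription of the lysozyme gene in myeloid cells is known to depend on PU.1, which Spi1 encodes, and on the C/EBP proteins. Of 12 myeloid regulators all passed the filter, and between brain and stroke blood 1 was higher, 1 was lower and 10 were not called, with a median of 0.24. Cebpb had 17958, 35211 and 31451 counts in the brain and 747, 431 and 909 in stroke blood, a level of 1323 ± 321 against 35.0 ± 14.6 CPM (SD, n = 3) and a log2 fold change of 5.08 (SE 0.373, adjusted p = 3.2e-05 in edgeR). Cebpd had 1013, 1977 and 1585 counts in the brain and 3002, 3235 and 3674 in stroke blood, a log2 fold change of -1.36 (SE 0.222, adjusted p = 0.00202 in edgeR). Cebpb and Cebpd thus differed in opposite directions, both without overlap of the libraries. Of all genes tested, 31.9% were higher and 17.3% lower in the brain without overlap. Cebpe was not called, at 0.32 (SE 0.498). Spi1 was at -0.14 (SE 0.161, adjusted p = 0.551 in edgeR), from 824 ± 75.3 CPM in the brain and 814 ± 101 CPM in stroke blood, and Cebpa at -0.94 (SE 0.295, adjusted p = 0.0371 in edgeR), just under the fold threshold. Exons of Cebpb, Cebpd and Cebpa overlap those of Tmem189, Spidr and Gm45091 on the opposite strand. Against sham blood Cebpb was higher (5.52, SE 0.328), Cebpd lower (-1.64, SE 0.197) and Cebpa lower (-1.38, SE 0.347, adjusted p = 0.0287 in edgeR). The call of Cebpa was lost without brain replicate 2 (-1.16) or 3 (-1.34) or sham blood replicate 2 (-1.14) or 3 (-1.37). It was also lost with the replicate number as a block (-1.40). The median of the 12 regulators against sham blood was 0.06.

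**Figure D4:**
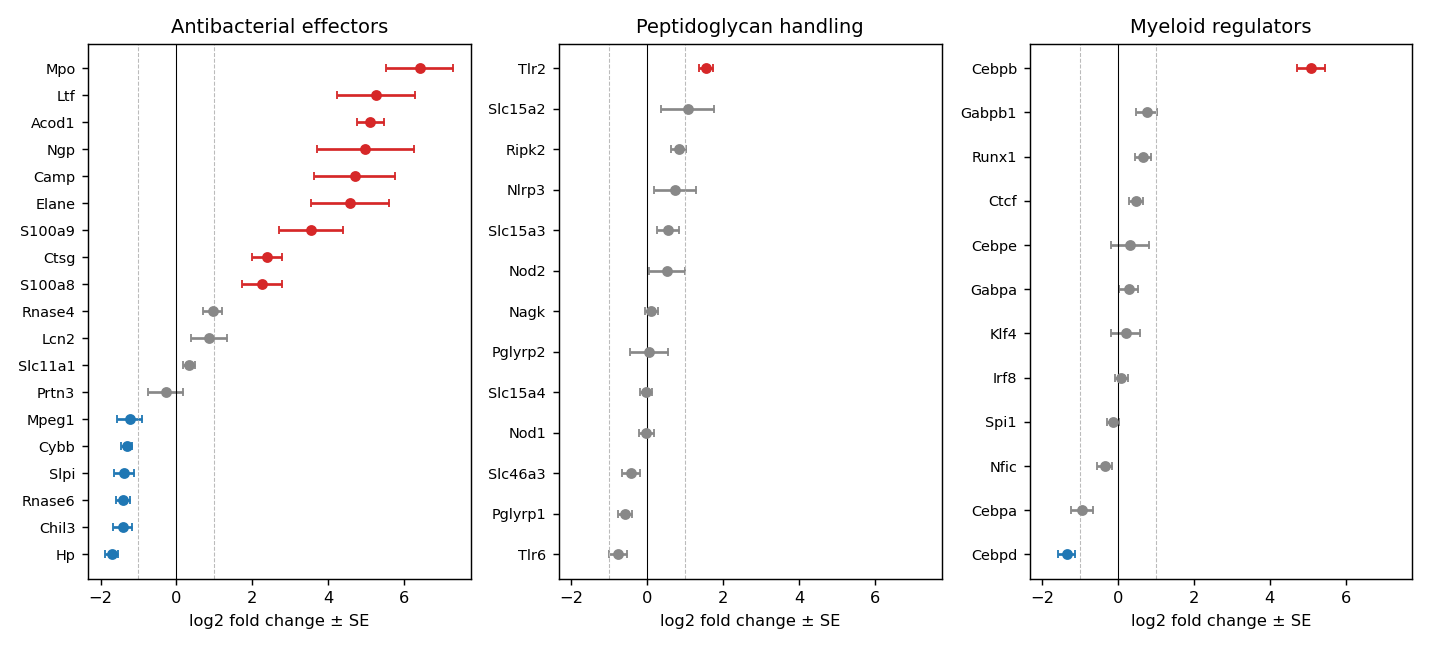
Log2 fold change between stroke brain and stroke blood (edgeR, TMM), with the SE as a bar, for the tested genes of antibacterial effectors (19), peptidoglycan handling (13) and myeloid regulators (12). Red is higher and blue lower in the brain (DEGs), grey is not called, and dashed lines mark a log2 fold change of -1 and 1. Cebpb stands apart among the regulators at 5.08, and the antibacterial genes split into 9 higher and 6 lower.

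Between stroke blood and sham blood, no gene of these lists was a DEG in edgeR with the filter on low counts. Of the 13 peptidoglycan, 18 antibacterial and 12 regulator genes tested, 10 had an unadjusted p below 0.05, beside 1581 of all 12664 genes. Nothing is read from this number. Other settings called some genes of the lists. Without the filter, edgeR called 5 as lower in stroke blood, S100a8 (-3.61), Lcn2 (-3.54), S100a9 (-3.20), Ltf (-2.88) and Chil3 (-1.31). They were among 160 genes called in that setting. Sham blood replicates were unequal in them, with 263, 1110 and 8435 counts of Lcn2 in replicates 1, 2 and 3. S100a9 had 694, 553 and 4763 counts there, Chil3 133627, 215096 and 419033, and Ltf 440, 61 and 78. DESeq2 called Chil3 (-1.29, adjusted p = 0.0240 in DESeq2), and edgeR with the replicate number as a block called S100a9 (-3.21, adjusted p = 0.00617 in edgeR). Over all genes 1 of 12664 was called (0.0079%), Serpinb10, while DESeq2 called 127. The lowest adjusted p on the lists was that of Rnase6 (0.92, SE 0.151, adjusted p = 0.285 in edgeR), with 7537, 7316 and 6340 counts in stroke blood and 3457, 4677 and 3319 in sham blood. Tlr2 was at -0.58 (SE 0.163) and S100a8 at -3.57 (SE 1.08), the latter with 17659 counts in sham blood replicate 3 and 846 and 1650 in replicates 1 and 2. The median log2 difference was 0.02 for peptidoglycan handling, -0.24 for the 18 antibacterial genes tested and -0.12 for the regulators, beside -0.03 over all genes.

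A set of 10 protein-coding genes around the lysozyme genes, 5 on each side, were followed to see how the locus compared. The nearest was 9530003J23Rik, 38627 bases from Lyz2, whose transcript had an identity of 72.6% with Lyz2 over 402 aligned bases and which had 0 counts in all 9 libraries, as did Lrrc10. Yeats4, 52823 bases from Lyz2 and a reader of histone acetylation, was at 27.9 ± 7.79 CPM in the brain and 41.0 ± 1.73 CPM in stroke blood (-0.72, SE 0.228, adjusted p = 0.0402 in edgeR), under the fold threshold. Cpsf6, 51804 bases from Lyz1 and part of a factor for 3′ end processing, was at 0.45 (SE 0.176). Of the 8 neighbours tested, 1 was a DEG, Mdm2, beside 21.0% of all genes tested. Mdm2, the ubiquitin ligase that holds p53 down, lies 396006 bases from Lyz1. It was higher in the brain with 99.4 ± 18.6 CPM against 40.6 ± 10.5 CPM (1.14, SE 0.223, adjusted p = 0.00476 in edgeR). That call was lost without stroke blood replicate 3 (0.97) or brain replicate 2 (0.99). The other neighbours, Cct2, Frs2, Cpm, Slc35e3 and Nup107, were not called, at -0.42, -0.38, 0.91, 0.24 and 0.03. In this comparison no neighbour tested had a log2 difference as low as that of Lyz2, -1.33. Lyz2 was chosen for its share in these same libraries and the neighbours were not, so nothing is read from this. Against sham blood and between the blood groups none of the 8 neighbours was called, beside 13.4% and 0.0079% of all genes tested. Cpm, a carboxypeptidase gene, was at 1.57 ± 0.848 CPM in the brain and 4.08 ± 2.30 CPM in sham blood. Its log2 difference against sham blood was -1.48 (SE 0.606), beside -1.36 for Lyz2.

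**Figure D5:**
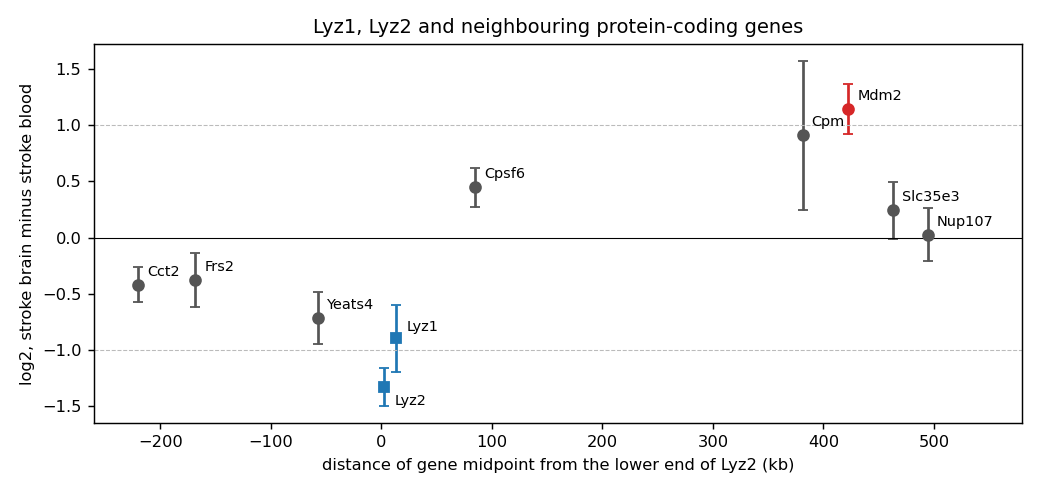
Log2 difference between stroke brain and stroke blood (edgeR, TMM), with the SE as a bar, of Lyz1 and Lyz2 (blue squares) and of the 8 tested neighbours (circles, Mdm2 as the DEG in red), against the distance of the gene midpoint from the lower end of Lyz2 in kb. Dashed lines mark -1 and 1. Lyz2, which was chosen for its share in these libraries, is the lowest at -1.33. Yeats4 and Cpsf6 on either side are at -0.72 and 0.45.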

How the data were processed

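Monocytes/macrophages were profiled by RNA-seq in 3 sham blood, 3 stroke blood and 3 stroke brain libraries, grouped by the labels. The authors made cDNA with the SMART-Seq HT kit, used HISAT2 for mapping to GRCm38 and HTSeq for counting, and the deposited values are raw counts without normalization. Versions, annotation release, strand setting and the treatment of reads that map to several places are not given in the sources used here. Gene names were taken from GENCODE M21 (53620 of 53801 identifiers matched) and upstream sequences from RefSeq.

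The 2 members, the gene lists and the tests were chosen with earlier results of these data known. Shares are counts over the library total. DEGs came from the quasi-likelihood test of edgeR 4.0.16 under R 4.3.3 (TMM, default filter, 3 against 3 libraries, library sizes kept at the full total), after checks on simulated data, and an SE is the log2 fold change over the square root of F. Profiles were compared on log2(TMM CPM + 1). Named genes were the lysozyme genes, members of 4 lists, 5 neighbours on each side, the 5 genes nearest in profile (of which 1 is not reported here), and the genes with the largest shares. Serpinb10 was named after its values were seen. Alternatives were DESeq2 1.42.0, RLE and library-size scaling, removal of both genes, other filters, a replicate block, 1 fit of all 9 libraries, other denominators and each library left out in turn, of which the last, for the effect of the removal, was added after seeing the data. Of 8 erythroid markers, 1 was not matched.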

Additional observations from a re-analysis of the deposited data

How the results depend on the processing

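Of the main results, 203 values under alternatives stayed within the spread between replicates or within 1.5 times the main count, and 16 did not. Under TMM in place of library-size scaling, taking out the lysozyme genes changed 5 calls between brain and stroke blood and 4 between brain and sham blood. The log2 difference of Lyz2 between brain and stroke blood was -1.17 by library size alone and between -1.38 and -1.28 when each library was left out in turn. Between stroke and sham blood, where edgeR called 1 gene, DESeq2 called 127 and a fit without the filter called 160, and on the lists DESeq2 called 1 gene and the fit without the filter called 5. Leaving out each library in turn gave between 0 and 16 DEGs there (16 without sham blood replicate 1), and between 0 and 11 calls that changed with the removal. Between brain and sham blood it gave between 1146 and 1883 DEGs, the lowest without sham blood replicate 3. The cause was not tested.

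With the replicate number as a block, 2634 genes were DEGs between brain and stroke blood, 1 between stroke and sham blood and 1571 between brain and sham blood, the log2 difference of Lyz2 was -1.33, -0.01 and -1.34, and on the lists 1 gene, S100a9, was called between stroke and sham blood (-3.21). Same-numbered libraries correlated between -0.11 and 0.10. Between brain and stroke blood 2 of 6 libraries correlated best with their own number, between stroke and sham blood 0, and between brain and sham blood 5. The numbers were not taken as a pairing in the main fits. Whether same-numbered brain and sham blood libraries share a source of variation was not tested. Of 36 named gene calls, 23 held in every alternative and 13 were lost in at least 1. With 3 libraries in a group, an exact permutation test could not have reached a p below 0.1. Depth limits the genes at a few counts. For Lyz1 and Lyz2 the counting intervals were narrower than the SD between libraries.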
